A study of Mus musculus with 24 samples.

Results

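The genes described here are the enzymes of the urea cycle and of amino acid catabolism in mouse liver, 37 genes taken by symbol from a list of liver enzymes. The rule used no measured value, but the list was drawn up with earlier results of these data known. All 37 were found among the 35304 genes of the count table, all 37 had a mean of at least 0.5 CPM, a count scaled to a fixed library size, and all 37 passed the filter on low counts, which 17275 genes passed. The study profiled whole liver by total RNA sequencing around the day in mice that lack the clock gene Bmal1 (Arntl) in hepatocytes. HepKO mice carried the genotype Alb::Cre_+/0, Bmal1_fl/fl, in which the albumin promoter drives Cre in hepatocytes, so the other liver cells keep the gene. HepWT mice carried Alb::Cre_0/0, Bmal1_fl/fl, the same floxed allele without Cre. All mice were C57BL/6, aged 8 to 12 weeks, and were fed during the night only. Livers were taken at zeitgeber time (ZT, the hours since lights came on) 2, 6, 10, 14, 18 and 22. Each genotype had 2 libraries at every time, which makes 12 per genotype and 24 in all. The labels do not say that each library came from its own animal, so p-values measure the spread between these libraries. In RNA from whole liver, fewer cells of a type and less RNA per cell cannot be told apart.

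Amino acids that are not used for protein lose their nitrogen in the liver. Aminotransferases and deaminating enzymes pass it to glutamate, aspartate and ammonia, and the urea cycle in periportal hepatocytes turns ammonia and aspartate into urea, while the carbon skeletons enter central metabolism. Many of these enzymes follow feeding and fasting, and BMAL1, which forms the activating arm of the circadian clock with CLOCK and drives transcription from E-box sequences, is one of the inputs to daily rhythms in hepatocytes.

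Total counts ranged from 12997689 to 30677807 per library, and 5 HepKO libraries (replicate 2 at ZT6, ZT10, ZT14, ZT18 and ZT22) were the shallowest, at 12997689 to 16910415, against 23583035 to 30677807 in the other 19. Arntl itself, counted over the whole gene and not over the deleted part, ran between 10.3 and 17.7 CPM in HepKO libraries and between 1.27 and 46.0 CPM in HepWT libraries, and its 24 h rhythms differed between genotypes (adjusted p = 0.00208). The HepWT pair at ZT6 stood apart for the 37 genes. In that pair 32 of the 37 were higher in replicate 1 than in replicate 2, with a median ratio of 1.41, whereas 49.9% of all tested genes were higher there and their median ratio was 1. HepWT ZT6 replicate 1 held the highest HepWT value of 18 of the 37 genes, against 9.67% of all genes, and HepWT ZT6 replicate 2 held the lowest of 13, against 8.01% of all genes. Among HepKO libraries, ZT6 replicate 2 held the lowest value of 18 of the 37 genes (11.5% of all genes) and ZT22 replicate 2 the highest of 14 (7.75% of all genes). Where leaving out a HepWT ZT6 library changed the averaged call of a gene, that is said beside the gene.

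Averaged over the 6 times, 10 of the 37 genes were higher in HepKO liver (Got1, Agxt, Hgd, Fah, Kynu, Amdhd1, Gnmt, Bhmt, Cbs and Cth) and 8 were lower (Asl, Gpt2, Ddo, Tdo2, Hal, Mat1a, Ahcy and Bckdha), at an adjusted p below 0.05 in edgeR's quasi-likelihood test over all genes. Among all tested genes, 13.2% were called higher and 13.3% lower, so the members' shares of 27.0% and 21.6% were both above the background. The sizes were not: the median absolute log2 difference was 0.14 over the members and 0.144 over all genes, and the median signed difference was 0.03 over the members and -0.01 over all genes. The members and all genes were not matched for expression level in these comparisons. Of the 37 members, 1 (Bhmt) differed by an absolute log2 of at least 1, against 724 of all 17275 tested genes. Sulfur amino acid metabolism was the block in which every gene was called, with 4 of 6 higher and 2 lower, whereas 5 of the 6 urea cycle genes and 5 of the 6 genes of lysine, branched chain and proline breakdown were not called. Without HepWT ZT6 replicate 1, 15 members were called higher and 6 lower; without HepWT ZT6 replicate 2, 10 were called higher and 9 lower. Without the 5 shallow libraries, 8 were called higher and 5 lower. Over all genes, calls changed little without either HepWT ZT6 library and became fewer without the shallow ones, where fewer samples entered the fit. Bhmt, Agxt, Cbs, Got1, Kynu, Hgd, Amdhd1, Cth, Asl, Ahcy, Ddo, Gpt2 and Tdo2 kept their call and direction in all 35 alternatives run for the averaged difference.

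**Figure D1:**
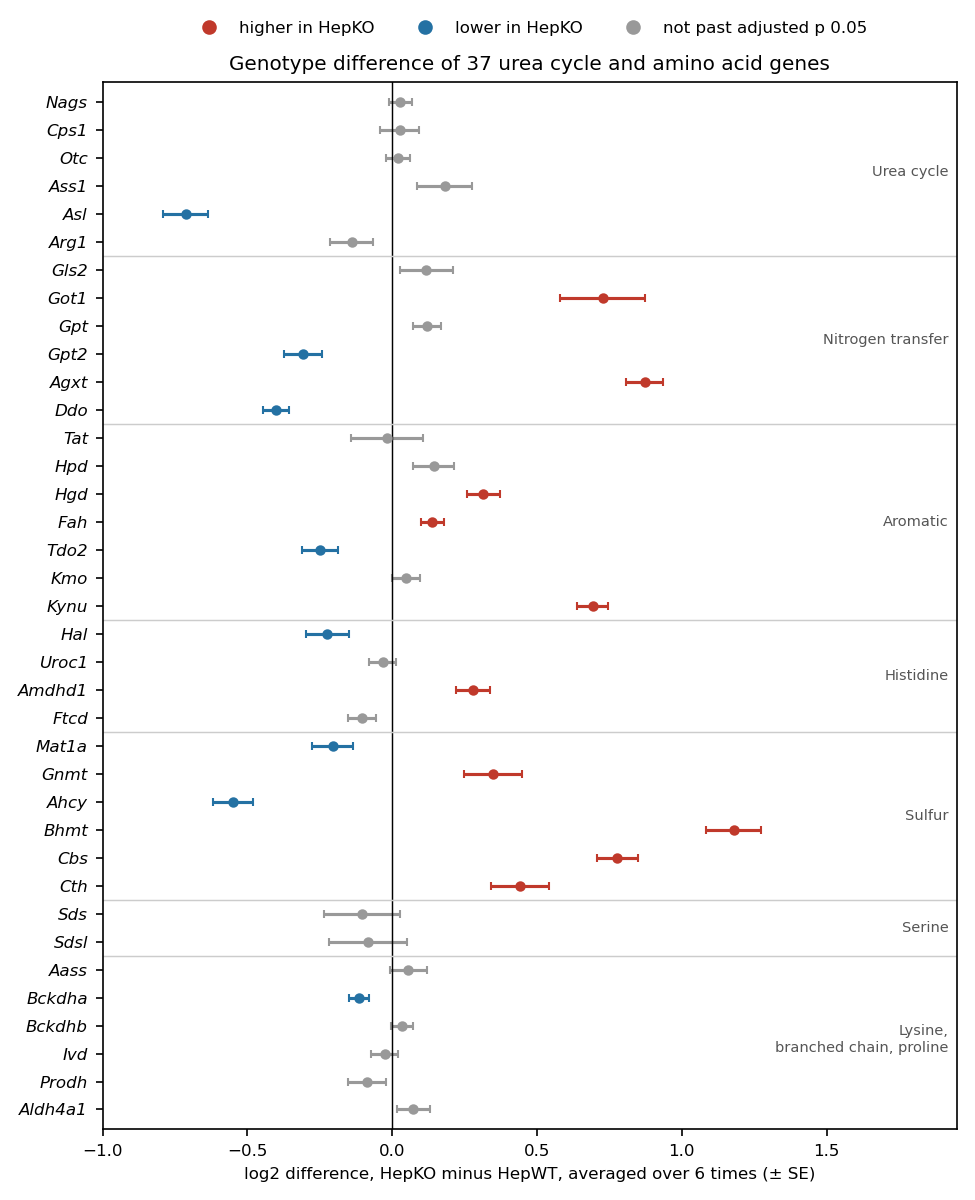
Points show the log2 difference of HepKO minus HepWT averaged over the 6 times, with bars of 1 standard error, for each of the 37 genes from top to bottom by block. Bhmt lies farthest to the right at 1.18 and Asl farthest to the left at -0.71, and most urea cycle genes and lysine, branched chain and proline genes lie near 0.

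Within the urea cycle, only argininosuccinate lyase (Asl), which splits argininosuccinate into arginine and fumarate, differed on average between genotypes. Asl ran from 177 to 371 CPM in HepKO libraries with a median of 272, against 226 to 608 CPM in HepWT libraries with a median of 453. The groups overlapped over the day, but at each of the 6 times both HepKO libraries were below both HepWT libraries. The averaged fit put Asl 1.64-fold lower in HepKO (log2 -0.71 ± 0.08 SE, adjusted p = 2.78e-06). Asl lies on chromosome 5 (GRCm38, 130011258 to 130029247, minus strand). At ZT14 it was at 271 and 279 CPM in HepKO, against 472 and 608 CPM in HepWT (log2 -0.97 ± 0.19, adjusted p = 0.00368), and it was also called lower at ZT10 (adjusted p = 0.0142) and ZT18 (adjusted p = 0.0138). The ZT14 call was lost without HepWT ZT14 replicate 2 (adjusted p = 0.0518). At ZT10 it did not pass once HepKO ZT10 replicate 1 or 2 or HepWT ZT10 replicate 1 was left out (adjusted p = 0.0627 to 0.192), nor at ZT18 once HepKO ZT18 replicate 1 or 2 or HepWT ZT18 replicate 1 was left out (adjusted p = 0.0878 to 0.154). All 3 were lost without the 5 shallow libraries (adjusted p = 0.0813 to 0.183).

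The other 5 urea cycle genes did not pass the test. Nags, which makes the N-acetylglutamate that activates CPS1, ran from 47.0 to 74.2 CPM in HepKO (median 62.0) and from 49.95 to 73.3 CPM in HepWT (median 61.4), with a log2 difference of 0.03 ± 0.04 (adjusted p = 0.662). Cps1, the mitochondrial carbamoyl phosphate synthetase that commits ammonia to the cycle, ran from 6312 to 8361 CPM in HepKO (median 6898) and from 5284 to 7976 CPM in HepWT (median 7201), with a log2 difference of 0.03 ± 0.07 (adjusted p = 0.826). The values of both genes lay almost wholly on top of each other. Otc, which joins carbamoyl phosphate to ornithine, ran from 478 to 553 CPM in HepKO (median 528) and from 451 to 575 CPM in HepWT (median 507), with a log2 difference of 0.02 ± 0.04 (adjusted p = 0.789). Ass1, which adds aspartate to citrulline, ran from 2381 to 3287 CPM in HepKO (median 2934) and from 1703 to 3992 CPM in HepWT (median 2589), with a log2 difference of 0.18 ± 0.09 (adjusted p = 0.177). The widest HepWT pair of Ass1 was at ZT6, the pair described above, and without HepWT ZT6 replicate 1 Ass1 was called higher in HepKO (log2 0.29, adjusted p = 0.00247). Arg1, which releases urea from arginine, ran from 692 to 1243 CPM in HepKO (median 1028) and from 759 to 1326 CPM in HepWT (median 1100), with a log2 difference of -0.14 ± 0.07 (adjusted p = 0.186), and it was called lower without HepWT ZT6 replicate 2 (log2 -0.20, adjusted p = 0.00896). Nags shares 13.5% of its exon sequence, read in stretches of 50 bases, with Gm11586. Reads of Ass1 are also uncertain in part, since 38.6% of the 50-base stretches of its exons occur in the pseudogene Gm5424, which stood at 23.8 CPM in HepKO and 24.2 CPM in HepWT. Per kilobase of exon, Cps1 (1264 CPM per kb in HepKO, 1243 in HepWT) and Ass1 (1205 in HepKO, 1072 in HepWT) had the highest levels of the 37 genes in both genotypes, and Asl stood at 54.8 CPM per kb in HepKO and 90.6 in HepWT.

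**Figure D2:**
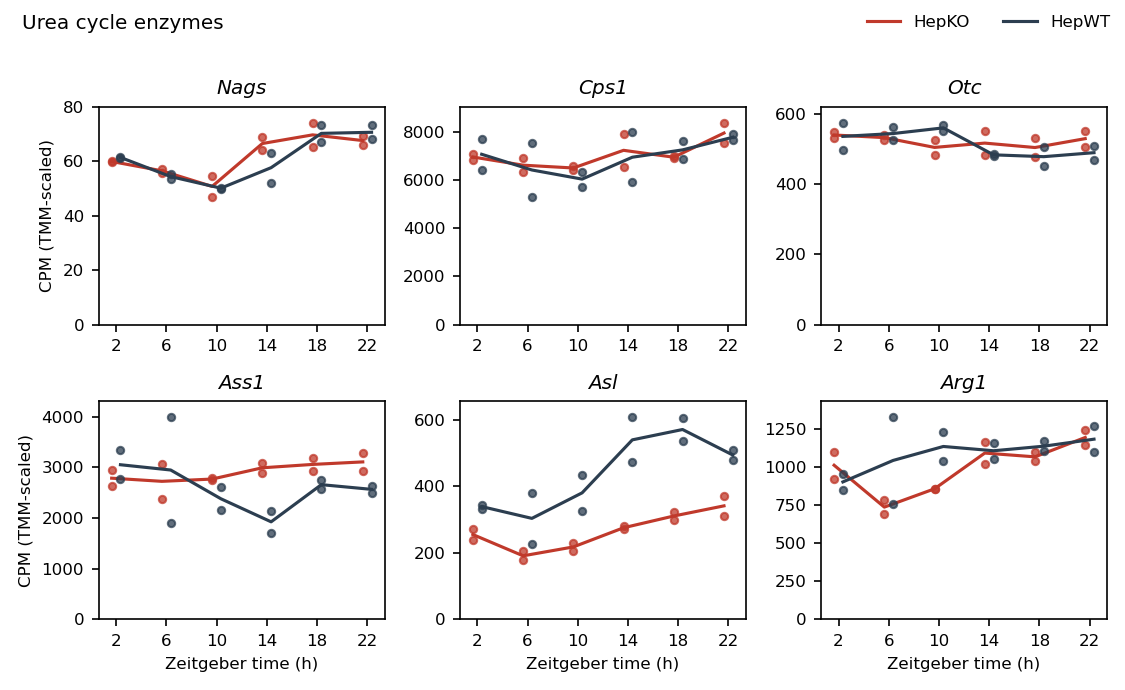
Each panel plots TMM-scaled CPM against zeitgeber time (h) for a urea cycle gene, with a point per library and a line through the mean of the 2 libraries, HepKO in red and HepWT in dark blue. The lines separate throughout the day for Asl, at 191 to 341 CPM in HepKO and 303 to 571 CPM in HepWT by time mean, and cross or lie close in the other panels.

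Of the 6 genes of nitrogen transfer, Got1 and Agxt were higher in HepKO liver and Gpt2 and Ddo were lower. Agxt encodes the peroxisomal alanine-glyoxylate aminotransferase, which detoxifies glyoxylate (chromosome 1, 93135240 to 93145421, plus strand). It ran from 284 to 354 CPM in HepKO (median 323) and from 120 to 381 CPM in HepWT (median 161), so that HepKO libraries stayed inside the upper part of the HepWT range. The averaged difference was 1.83-fold (log2 0.87 ± 0.06, adjusted p = 2.11e-08). At ZT14 Agxt had 320 and 324 CPM in HepKO, against 129 and 122 CPM in HepWT (log2 1.36 ± 0.16, adjusted p = 2.4e-05). At ZT6 it had 335 and 284 CPM in HepKO, against 381 and 250 CPM in HepWT (log2 -0.03 ± 0.16, adjusted p = 0.955), and the genotypes overlapped. This ZT6 difference was 0.31 without HepWT ZT6 replicate 1 and -0.30 without replicate 2, neither called.

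Got1, the cytosolic aspartate aminotransferase of the malate-aspartate shuttle (chromosome 19, 43499752 to 43524605, minus strand), ran from 166 to 339 CPM in HepKO (median 244) and from 72.0 to 278 CPM in HepWT (median 142). It was 1.65-fold higher on average in HepKO (log2 0.73 ± 0.15, adjusted p = 0.00126), in the same direction at 6 of 6 times, and it passed the test at no single time (adjusted p = 0.169 to 0.522). Ddo, the peroxisomal oxidase of D-aspartate (chromosome 10, 40630011 to 40681847, plus strand), had the lowest level per kilobase of the 37 genes (1.87 CPM per kb in HepKO, 2.44 in HepWT). It ran from 9.47 to 22.01 CPM in HepKO (median 17.1) and from 14.95 to 27.9 CPM in HepWT (median 23.0), and was 1.32-fold lower in HepKO (log2 -0.40 ± 0.05, adjusted p = 3.71e-06). Of the 2 alanine aminotransferases, mitochondrial Gpt2 averaged 386 ± 62.3 CPM in HepKO and 492 ± 149 CPM in HepWT (SD, n = 12 each; log2 -0.31 ± 0.07, adjusted p = 0.00188), and cytosolic Gpt, which was not called, averaged 264 ± 22.7 CPM in HepKO and 242 ± 21.2 CPM in HepWT (log2 0.12 ± 0.05, adjusted p = 0.0747). The Gpt2 difference was -0.18 (adjusted p = 0.041) against the HepWT replicate 2 libraries alone. Without HepWT ZT6 replicate 1, HepWT ZT18 replicate 1 or HepWT ZT22 replicate 1, Gpt was called higher (adjusted p = 0.021, 0.039 and 0.0451). Gls2, the liver glutaminase, was not called (log2 0.12 ± 0.09, adjusted p = 0.382), and it too turned on HepWT ZT6. Without replicate 1 of that pair Gls2 was called higher (log2 0.24, adjusted p = 0.000698), and without replicate 2 the difference was 0.04.

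Among the 7 aromatic amino acid genes, kynureninase (Kynu), which cleaves kynurenines on the tryptophan route, was the only member whose genotypes did not overlap over the day. The share of all tested genes without such overlap was not counted, so this has no background to compare with. Kynu ran from 216 to 272 CPM in HepKO (median 237) and from 88.7 to 208 CPM in HepWT (median 155), and all 12 HepKO libraries were above all 12 HepWT libraries. Its averaged difference was 1.62-fold (log2 0.69 ± 0.05, adjusted p = 4e-08), on chromosome 2 (43555329 to 43682715, plus strand). Tdo2, the dioxygenase that opens the tryptophan ring at the entry to the same route, moved the other way on average, at 1045 to 1561 CPM in HepKO (median 1364) and 1225 to 2105 CPM in HepWT (median 1498; log2 -0.25 ± 0.06, adjusted p = 0.00642). Its time of largest difference was ZT10, with 1045 and 1262 CPM in HepKO and 2105 and 1889 CPM in HepWT (log2 -0.79 ± 0.15, adjusted p = 0.00319), a call that was lost without HepKO ZT10 replicate 1 (adjusted p = 0.072). Kmo, between them on the route, was not called (log2 0.05 ± 0.05, adjusted p = 0.521).

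On the tyrosine route, Hgd and Fah were slightly higher in HepKO, and Gstz1, the step between them and not one of the 37, was not called (log2 0.09, adjusted p = 0.0899). Homogentisate dioxygenase (Hgd) averaged 555 ± 29.3 CPM in HepKO and 448 ± 63.4 CPM in HepWT (SD, n = 12 each; log2 0.31 ± 0.06, adjusted p = 0.00051). Fumarylacetoacetate hydrolase (Fah) averaged 512 ± 34.4 CPM in HepKO and 465 ± 28.6 CPM in HepWT (log2 0.14 ± 0.04, adjusted p = 0.0138), a call lost without the 5 shallow libraries (adjusted p = 0.111) and without the filter on low counts (adjusted p = 0.0677). Tyrosine aminotransferase (Tat), the entry enzyme, ran from 444 to 1338 CPM in HepKO (median 953) and from 522 to 1669 CPM in HepWT (median 812) and was not called (log2 -0.02 ± 0.12, adjusted p = 0.944), and neither was Hpd, the dioxygenase after it (log2 0.14 ± 0.07, adjusted p = 0.149). Hpd was called higher without HepWT ZT6 replicate 1 (log2 0.20, adjusted p = 0.016), against the HepWT replicate 2 libraries alone (log2 0.24, adjusted p = 0.00139) and without the filter on low counts (adjusted p = 0.0442). Both genotypes gave Tat its highest mean at ZT18 and its lowest at ZT6.

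The 4 enzymes that take histidine to glutamate did not move together on average over the day. By time, all 4 were lower in HepKO at ZT2 and ZT6 and higher at ZT14, and their signs were mixed at ZT10, ZT18 and ZT22. At ZT2, ZT6 and ZT14 only Hal at ZT6 and Amdhd1 at ZT14 were called. Hal and Amdhd1 are neighbours on chromosome 10 on opposite strands (Hal from 93488768 to 93519304, plus; Amdhd1 from 93523338 to 93540033, minus). Hal, the ammonia-lyase that starts the route, averaged 334 ± 62.6 CPM in HepKO and 404 ± 140 CPM in HepWT (SD, n = 12 each; log2 -0.22 ± 0.07, adjusted p = 0.0342), a small difference whose call was lost in 16 of the 35 alternatives, including those without HepWT ZT6 replicate 1 (adjusted p = 0.0727) and without the 5 shallow libraries (adjusted p = 0.121). Amdhd1, the imidazolonepropionase, ran from 177 to 236 CPM in HepKO (median 212) and from 94.4 to 333 CPM in HepWT (median 180), with HepKO inside the HepWT range (log2 0.28 ± 0.06, adjusted p = 0.00177). Its difference varied with the time of day. At ZT14 Amdhd1 had 177 and 184 CPM in HepKO, against 107 and 94.4 CPM in HepWT (log2 0.84 ± 0.14, adjusted p = 0.00107), and at ZT6 it had 236 and 224 CPM in HepKO, against 333 and 237 CPM in HepWT (log2 -0.31 ± 0.14, adjusted p = 0.255). The ZT6 difference of Amdhd1 was -0.04 (adjusted p = 0.935) without HepWT ZT6 replicate 1 and -0.54 (adjusted p = 0.0495) without replicate 2. Uroc1, the urocanate hydratase, and Ftcd, which passes the formimino group to folate, were not called (log2 -0.03 ± 0.05, adjusted p = 0.668, and log2 -0.11 ± 0.05, adjusted p = 0.125).

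In sulfur amino acid metabolism, the members that consume homocysteine, Bhmt and Cbs, were higher in HepKO liver, and Ahcy, which produces it, was lower. Betaine-homocysteine methyltransferase (Bhmt), which returns homocysteine to methionine with betaine as the methyl donor, had the largest difference of the 37 genes (chromosome 13, 93616675 to 93637961, minus strand). Bhmt ran from 3825 to 6555 CPM in HepKO (median 5247) and from 1283 to 4213 CPM in HepWT (median 2346), and 11 of the 12 HepKO libraries were above every HepWT library. Its averaged difference was 2.26-fold (log2 1.18 ± 0.09, adjusted p = 5.74e-08). At ZT14 Bhmt had 6310 and 5255 CPM in HepKO, against 1283 and 1469 CPM in HepWT (log2 2.07 ± 0.24, adjusted p = 1.96e-05), the largest difference of any member at any time. At ZT10 it had 5522 and 5064 CPM in HepKO, against 1645 and 1755 CPM in HepWT (log2 1.64 ± 0.23, adjusted p = 0.000209). In both pairs the genotypes were far apart compared with their replicates, but at ZT22 they met, with 4230 and 6555 CPM in HepKO and 4213 and 2385 CPM in HepWT (log2 0.71 ± 0.23, adjusted p = 0.163). Of the 50-base stretches of Bhmt's exons, 26.1% occur in other genes, among them Gm5096 (59.9 CPM in HepKO, 28.8 in HepWT) and Bhmt-ps1 (49.0 CPM in HepKO, 21.6 in HepWT), so reads of these 3 genes could be split between them.

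The transsulfuration enzymes were higher as well. Cystathionine beta-synthase (Cbs), which condenses homocysteine with serine (chromosome 17, 31608894 to 31637238, minus strand), ran from 456 to 574 CPM in HepKO (median 518) and from 146 to 603 CPM in HepWT (median 309; 1.71-fold, log2 0.78 ± 0.07, adjusted p = 2.7e-07). At ZT14 it had 464 and 512 CPM in HepKO, against 178 and 146 CPM in HepWT (log2 1.59 ± 0.18, adjusted p = 1.46e-05), and at ZT6 it had 534 and 488 CPM in HepKO, against 603 and 377 CPM in HepWT (log2 0.06 ± 0.17, adjusted p = 0.905). Without HepWT ZT6 replicate 1 the ZT6 difference of Cbs was 0.44 (adjusted p = 0.181), and without replicate 2 it was -0.24 (adjusted p = 0.513). The HepKO values moved little over the day, and of the HepWT libraries only ZT6 replicate 1 came up to them. Cystathionine gamma-lyase (Cth), the next step to cysteine (chromosome 3, 157894248 to 157925077, minus strand), ran from 303 to 468 CPM in HepKO (median 385) and from 174 to 534 CPM in HepWT (median 270; 1.36-fold, log2 0.44 ± 0.10, adjusted p = 0.00317). Its ZT14 call (386 and 348 CPM in HepKO, against 174 and 177 CPM in HepWT, adjusted p = 0.0124) was lost without HepKO ZT14 replicate 1 (adjusted p = 0.0697), without HepWT ZT14 replicate 1 (adjusted p = 0.0797), without HepWT ZT14 replicate 2 (adjusted p = 0.0666) and without the 5 shallow libraries (adjusted p = 0.0915).

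On the methylation side of the cycle the directions were mixed. Adenosylhomocysteinase (Ahcy), which releases homocysteine from S-adenosylhomocysteine (chromosome 2, 155059310 to 155074497, minus strand), ran from 398 to 579 CPM in HepKO (median 476) and from 454 to 905 CPM in HepWT (median 702). It was 1.46-fold lower in HepKO (log2 -0.55 ± 0.07, adjusted p = 1.22e-05), with the same sign at 6 of 6 times. Ahcy shares 68.7% of its 50-base stretches with other genes, among them Gm4737 (6.57 CPM in HepKO, 10.2 in HepWT) and Gm9826 (5.09 CPM in HepKO, 7.07 in HepWT), and its level is uncertain to that extent. Glycine N-methyltransferase (Gnmt), which consumes S-adenosylmethionine, ran from 1023 to 1526 CPM in HepKO (median 1357) and from 794 to 1539 CPM in HepWT (median 1005; 1.27-fold, log2 0.35 ± 0.10, adjusted p = 0.0163). The 2 HepWT replicate sets differed for Gnmt, with means of 1228 and 863 CPM. The difference was 0.13 against replicate 1 alone, 0.62 against replicate 2 alone and 0.34 without the 5 shallow libraries. The Gnmt call was lost in 3 of the 35 alternatives, among them replicate 1 alone and the fit without the shallow libraries. Mat1a, which makes S-adenosylmethionine in liver, averaged 1807 ± 408 CPM in HepKO and 2052 ± 332 CPM in HepWT (SD, n = 12 each; log2 -0.21 ± 0.07, adjusted p = 0.0388), and this call was lost in 19 of the 35 alternatives, including those without HepWT ZT6 replicate 1 (adjusted p = 0.0727) and without the 5 shallow libraries (adjusted p = 0.122).

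The remaining blocks changed little. Serine dehydratase (Sds) averaged 94.0 ± 20.8 CPM in HepKO and 106 ± 48.3 CPM in HepWT, its relative Sdsl averaged 7.71 ± 1.29 CPM in HepKO and 8.35 ± 3.83 CPM in HepWT (SD, n = 12 each), and neither was called (adjusted p = 0.624 and 0.701). Sds shares 21.2% of its stretches with other genes, chiefly Plbd2. Bckdha, the E1 alpha subunit of branched-chain keto acid dehydrogenase, averaged 168 ± 13.0 CPM in HepKO and 182 ± 21.2 CPM in HepWT (log2 -0.12 ± 0.03, adjusted p = 0.0173). This call was lost in 4 of the 35 alternatives. Among them were the fits without the 5 shallow libraries (log2 -0.115), against the HepWT replicate 2 libraries alone (log2 -0.081) and without the filter on low counts. With 49.6% of its stretches shared with the overlapping gene B3gnt8, the value of Bckdha is uncertain. Its partner Bckdhb (log2 0.03), isovaleryl-CoA dehydrogenase Ivd (log2 -0.03), the lysine enzyme Aass (log2 0.06), proline dehydrogenase Prodh (log2 -0.09) and Aldh4a1, the next step after Prodh (log2 0.07), were not called, with adjusted p of 0.371 to 0.741. Without HepWT ZT6 replicate 1, Aass was called higher (log2 0.12, adjusted p = 0.0487). Aldh4a1 shares 30.0% of its stretches with Gm21969.

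Most differences at single times were called at ZT10, ZT14 and ZT18. At ZT14, 7 members were higher in HepKO (Agxt, Hgd, Kynu, Amdhd1, Bhmt, Cbs and Cth; 4.6% of all tested genes) and 4 were lower (Asl, Gpt2, Ddo and Ahcy; 3.04% of all). At ZT10, 4 members were higher (Agxt, Kynu, Bhmt and Cbs; 3.73% of all) and 3 were lower (Asl, Ddo and Tdo2; 3.98% of all). At ZT18, 5 members were higher (Agxt, Kynu, Amdhd1, Bhmt and Cbs; 2.08% of all) and 2 were lower (Asl and Ahcy; 1.7% of all). Agxt, Kynu, Bhmt and Cbs were among the higher members at each of these 3 times. In the other part of the day few members passed. At ZT22, Agxt and Cbs were higher (0.839% of all) and 0 were lower (0.509% of all). At an unadjusted p below 0.05 there were 7 higher (6.27% of all) and 4 lower (5.69% of all). DESeq2 called 4 higher and 1 lower, and limma-voom called 2 higher and 0 lower. At ZT2, edgeR called 0 members higher (0.944% of all) and 0 lower (0.915% of all). At an unadjusted p below 0.05 there were 4 higher (6.05% of all) and 3 lower (7.27% of all). DESeq2 called 1 higher, Agxt, and 0 lower, and limma-voom called 0 in either direction. At ZT6, Kynu was higher (2.55% of all) and Hal was lower (2.41% of all), but this time rests on the HepWT pair that stood apart. Without HepWT ZT6 replicate 1, 3 members were higher at ZT6 and 0 lower; without HepWT ZT6 replicate 2, 0 were higher and 10 lower. Leaving out either of these libraries also raised the counts at ZT10 to 7 higher and 5 lower, with Got1, Hgd, Cth, Arg1 and Sds added, though the ZT10 differences themselves did not move. The 4 lower calls at ZT14 became 2 without HepKO ZT14 replicate 2 or either HepWT ZT14 library, and the 2 lower calls at ZT18 became 0 without either HepKO ZT18 library or HepWT ZT18 replicate 1. The lower calls at ZT10 became 1 without HepKO ZT10 replicate 1, and the higher calls at ZT22 became 1 without either HepKO ZT22 library or HepWT ZT22 replicate 2. Of the 29 calls of a member at a time, 14 were kept whichever single library was left out: those of Agxt at ZT14, ZT18 and ZT22, of Kynu and Bhmt at ZT10 and ZT14, of Kynu, Amdhd1 and Cbs at ZT18, of Amdhd1 and Cbs at ZT14, and of Ddo at ZT10 and ZT14. Over all members, the median log2 difference was 0.19 at ZT14 and -0.11 at ZT6, against -0.01 and 0.00 over all genes.

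**Figure D3:**
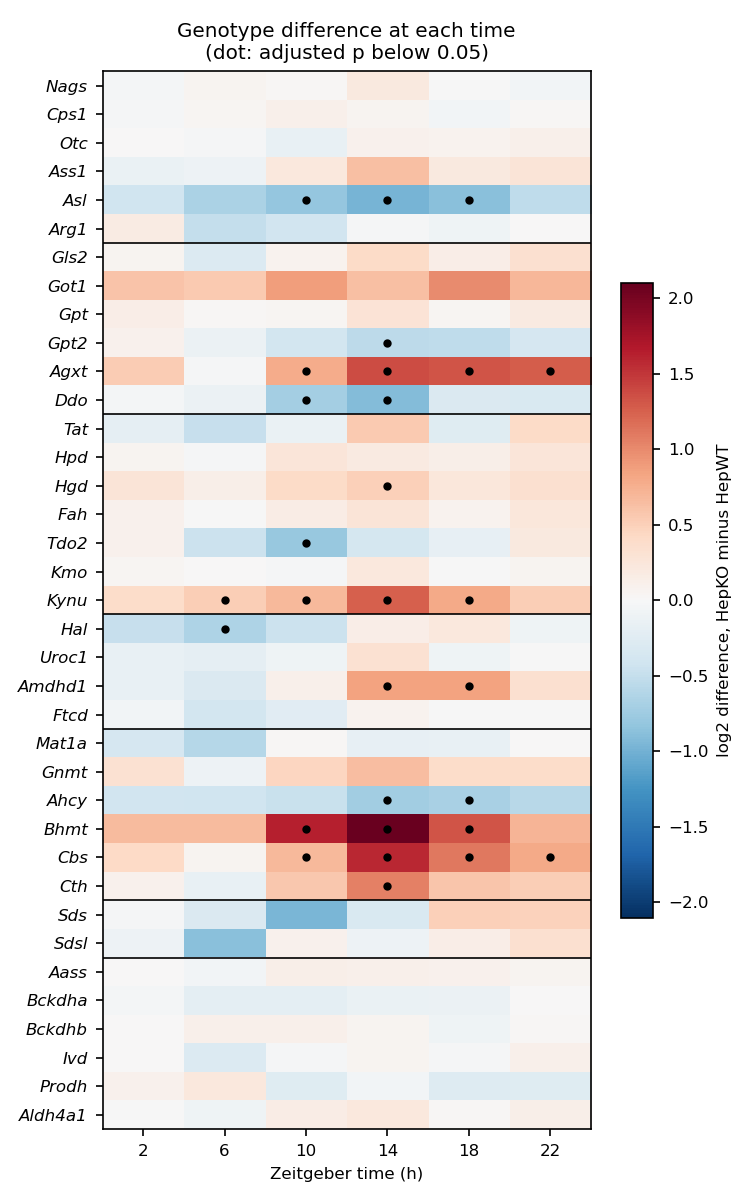
The map shows the log2 difference of HepKO minus HepWT for the 37 genes (down the page, by block) at each zeitgeber time (h, left to right), red where HepKO was higher and blue where it was lower, with a dot where the adjusted p was below 0.05. Most dots lie at ZT10, ZT14 and ZT18, and the darkest cell is Bhmt at ZT14 with 2.07.

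The test of whether the genotype difference itself varied with time passed for 4 members (1.12% of all genes): Agxt (adjusted p = 0.00636), Amdhd1 (adjusted p = 0.00973), Cbs (adjusted p = 0.022) and Ddo (adjusted p = 0.0239). For Agxt, Amdhd1 and Cbs the difference was near 0 or negative at ZT6, a value that moved with the HepWT ZT6 library left out, and largest or close to it at ZT14. For Ddo it was -0.04 at ZT2 and -0.91 ± 0.11 at ZT14, where HepKO had 14.9 and 12.8 CPM and HepWT 24.6 and 27.6 CPM (adjusted p = 4.09e-05). All 4 calls were lost without the 5 shallow libraries (adjusted p = 0.242 to 0.655), which leaves 1 HepKO library at 5 of the 6 times, whereas Agxt and Amdhd1 kept theirs in every other alternative run. Cbs lost its call without HepKO ZT6 replicate 1 or 2, HepKO ZT14 replicate 2 or HepWT ZT14 replicate 2 (adjusted p = 0.058 to 0.0848), and Ddo lost its call without any of 6 single libraries (adjusted p = 0.0546 to 0.0787). The count was 9 without HepWT ZT6 replicate 2, 2 without HepKO ZT14 replicate 2 and 2 without HepWT ZT14 replicate 2.

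Daily rhythms were described by a 24 h wave fitted within each genotype, whose amplitude is how far, in log2 units, the peak lies above the mean. In HepKO 9 members had a rhythm at an adjusted p below 0.05 (Nags, Asl, Arg1, Gpt2, Ddo, Tat, Hal, Mat1a and Bckdha; 14.3% of all genes), and in HepWT 21 did (30.3% of all genes). Of these, 7 passed in both genotypes, 2 in HepKO alone and 14 in HepWT alone, and 14 members passed in neither. Among all 17275 tested genes, 1803 passed in both, 668 in HepKO alone, 3436 in HepWT alone and 11368 in neither. A pass in a single genotype does not show a difference, which was tested directly. The rhythms differed for 7 members (Agxt, Amdhd1, Bhmt, Cbs, Tdo2, Ddo and Kynu; 18.9% of the 37, against 1.5% of all genes). The median amplitude of the 37 genes was 0.121 in HepKO and 0.261 in HepWT, against 0.191 and 0.225 over all genes, and 26 of the 37 (70.3%) had the lower amplitude in HepKO, against 59.7% of all genes. All genes include weakly counted ones, and they were not matched to the 37 for expression level. The HepKO rhythm of Gpt2 and the HepWT rhythm of Otc were marginal (adjusted p = 0.047 and 0.0475) and were lost in 19 and 24 alternatives. Without the 5 shallow libraries, 1 member had a HepKO rhythm, Ddo, and 3 differed between genotypes.

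In 6 of the 7 the amplitude was lower in HepKO. Agxt had an amplitude of 0.02 ± 0.07 in HepKO and 0.69 ± 0.07 in HepWT, where it peaked at ZT5.46 ± 0.36 h (adjusted p of the difference 0.000577). Amdhd1 had 0.15 ± 0.06 in HepKO and 0.77 ± 0.06 in HepWT, with a HepWT peak at ZT4.37 ± 0.29 h (adjusted p = 0.000439). Bhmt had 0.10 ± 0.09 in HepKO and 0.68 ± 0.09 in HepWT, with a HepWT peak at ZT1.09 ± 0.49 h (adjusted p = 0.0044). All 3 were much flatter in HepKO, and they changed by 2.58- to 2.91-fold between trough and peak in HepWT, and their calls held in every alternative run. Cbs had 0.12 ± 0.08 in HepKO and 0.67 ± 0.08 in HepWT, with a HepWT peak at ZT3.41 ± 0.47 h (adjusted p = 0.0104). Kynu had 0.07 ± 0.06 in HepKO and 0.43 ± 0.06 in HepWT, with a HepWT peak at ZT2.6 ± 0.49 h (adjusted p = 0.0435). The Kynu call was marginal and was lost in 24 alternatives, among them leaving out any of 20 single libraries, with adjusted p of at most 0.108 in those. Tdo2 had 0.14 ± 0.06 in HepKO and 0.32 ± 0.06 in HepWT, with a HepWT peak at ZT10.7 ± 0.7 h (adjusted p = 0.0137). The rhythm differences of Cbs and Tdo2 each lost their call in 3 alternatives, but not by leaving out any single library. Ddo had an amplitude of 0.54 ± 0.06 in HepKO and 0.44 ± 0.06 in HepWT and peaked 3.01 h later in HepKO (ZT21.8 ± 0.4 h) than in HepWT (ZT18.8 ± 0.5 h; adjusted p = 0.0382), and its call was lost without any of 12 single libraries (adjusted p = 0.0501 to 0.0963).

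**Figure D4:**
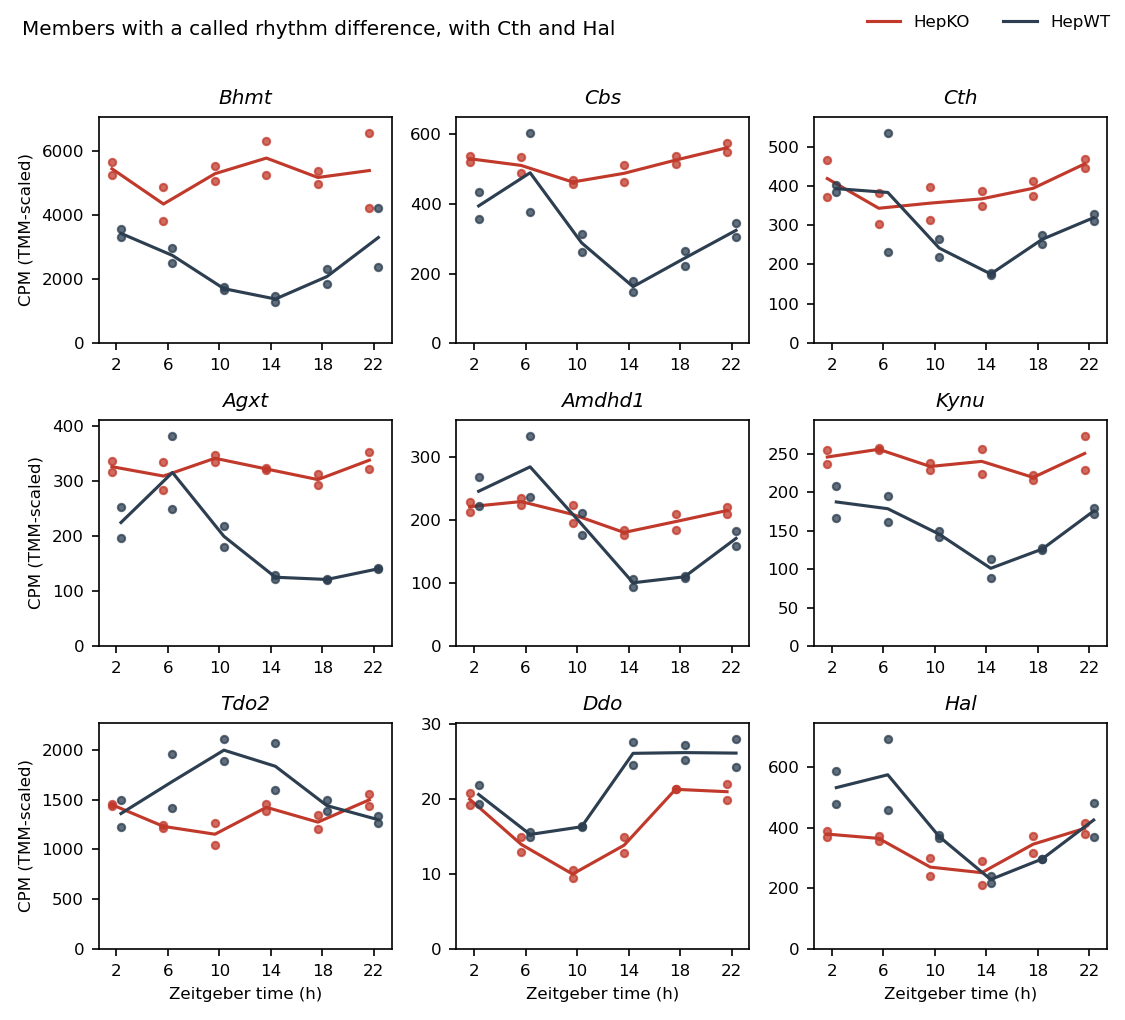
Each panel plots TMM-scaled CPM against zeitgeber time (h) with a point per library and a line through the mean of the 2 libraries, HepKO in red and HepWT in dark blue, for the 7 genes whose rhythms differed and for Cth and Hal. In Bhmt, Cbs, Agxt, Amdhd1 and Kynu the HepWT line dips at ZT14 or ZT18, and the HepKO line changes less over the day. The HepKO line of Amdhd1 also has its low point at ZT14, with 181 CPM. In Ddo the HepKO line has its low point at ZT10 with 9.98 CPM.

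Most rhythmic members peaked early in the light phase or at night in HepWT, as did most of all rhythmic genes. Of the 5239 genes with a HepWT rhythm, 1928 peaked from ZT0 to ZT8, 967 from ZT8 to ZT14 and 2344 from ZT14 to ZT24. With windows chosen after the peak times were seen, 11 of the 21 rhythmic members peaked between ZT1.09 and ZT6.43 in HepWT (Bhmt, Cth, Kynu, Uroc1, Hal, Cbs, Amdhd1, Gls2, Ftcd, Agxt and Otc), and 1 of these 11, Hal, also had a rhythm in HepKO. All 11 had the lower amplitude in HepKO, but so did 88.5% of all genes with a HepWT rhythm that peaked between ZT0 and ZT8, since genes chosen by a HepWT rhythm favour that direction. Of those genes, 30.7% had a HepKO rhythm. The HepWT rhythm of Gls2 was lost without HepWT ZT6 replicate 1 (adjusted p = 0.216). Bckdha, Tdo2 and Sds peaked from ZT8.9 to ZT11.1, and 1 of these 3, Bckdha, had a HepKO rhythm, against 35.6% of all genes with a HepWT peak from ZT8 to ZT14. Another 7 members peaked between ZT15.7 and ZT20.8 in HepWT (Gpt2, Ahcy, Asl, Prodh, Tat, Ddo and Nags), and 5 of these 7 also had a rhythm in HepKO, against 37% of all genes with a HepWT peak from ZT14 to ZT24. Of the 9 HepKO rhythms, 7 peaked between ZT15.5 and ZT21.8, and 49.3% of all genes with a HepKO rhythm peaked from ZT14 to ZT24. In the urea cycle, Asl peaked at ZT19.6 ± 0.7 h in HepKO and ZT17.3 ± 0.6 h in HepWT, and Nags at ZT19.4 ± 0.7 h in HepKO and ZT20.8 ± 0.6 h in HepWT, with amplitudes of 0.39 and 0.21 in HepKO and 0.49 and 0.25 in HepWT. Arg1 had a HepKO rhythm (amplitude 0.30 ± 0.08, adjusted p = 0.0342) that was lost in 8 alternatives, and its amplitude in HepWT was 0.12 ± 0.08, with no test-passing difference between them (adjusted p = 0.501). Tat kept the largest HepKO amplitude of the 37 genes, 0.68 ± 0.13, against 0.43 ± 0.13 in HepWT (adjusted p of the difference 0.764).

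**Figure D5:**
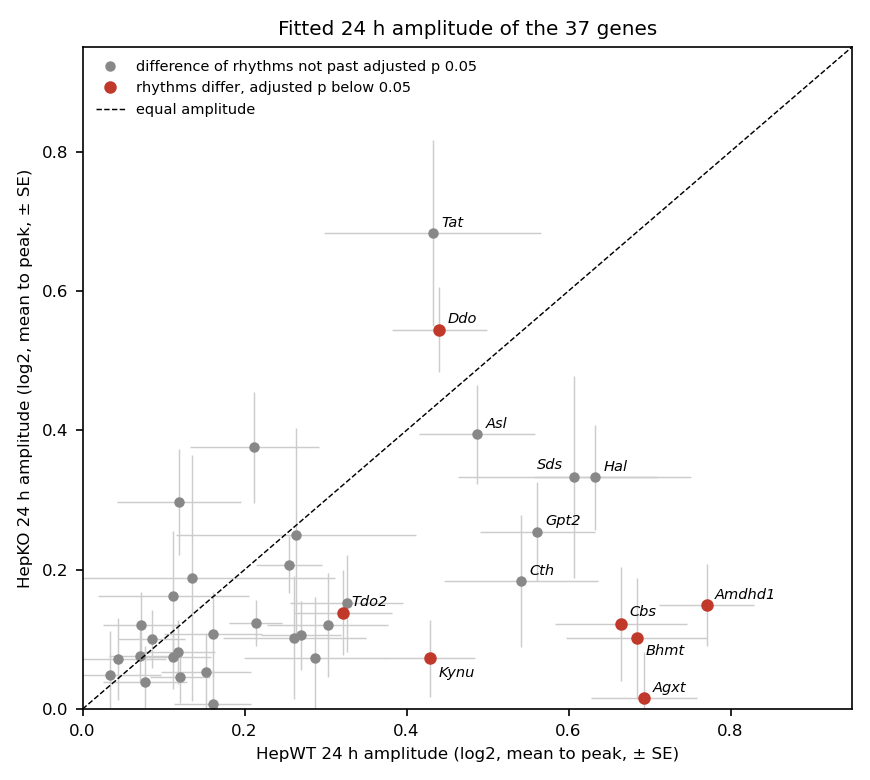
Each point is a gene placed by its fitted 24 h amplitude in HepWT (x axis) and HepKO (y axis), both in log2 units from mean to peak with bars of 1 standard error, and the dashed line marks equal amplitudes. Agxt, Amdhd1, Bhmt, Cbs and Kynu lie far below the line at HepKO amplitudes of 0.02 to 0.15, Tat and Ddo lie above it.

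Because BMAL1 acts through E-boxes and some of its targets act through other elements, the 250 bases before the start site were searched. Promoters came from RefSeq (GRCm38.p6), where 27 of the 37 genes had an entry, with 28 promoters. The motifs were the E-box CACGTG, its variant CACGTT, the D-box TTATGTAA and the core of the ROR element TAGGTCA, each on both strands, and none of these overlap each other. The E-box was found in 3 member promoters, those of Ass1, Cbs and Ddo (10.7%, against 6.02% of 32851 promoters). CACGTT was found in that of Tat alone (3.57%, against 3.85% of all), TTATGTAA in 0 (against 0.819% of all), and TAGGTCA in those of Aass and Bhmt (7.14%, against 2.23% of all). The sequences shown are those of all 6 members with an entry whose rhythm differed between genotypes: 5 with the lower amplitude in HepKO, and Ddo, whose peak came later. They run 5′ to 3′ toward the start site, and capitals mark a motif letter for letter. The windows are chr1:93134990-93135239 (plus strand) for Agxt, chr10:93540034-93540283 (minus) for Amdhd1, chr13:93637759-93638008 (minus) for Bhmt, chr17:31637206-31637455 (minus) for Cbs, chr3:81975729-81975978 (minus) for Tdo2 and chr10:40629761-40630010 (plus) for Ddo.
Agxt: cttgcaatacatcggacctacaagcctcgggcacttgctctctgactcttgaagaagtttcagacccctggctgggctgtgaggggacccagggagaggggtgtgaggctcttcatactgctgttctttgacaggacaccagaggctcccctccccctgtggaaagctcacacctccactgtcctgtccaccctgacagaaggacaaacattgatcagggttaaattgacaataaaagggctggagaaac
Amdhd1: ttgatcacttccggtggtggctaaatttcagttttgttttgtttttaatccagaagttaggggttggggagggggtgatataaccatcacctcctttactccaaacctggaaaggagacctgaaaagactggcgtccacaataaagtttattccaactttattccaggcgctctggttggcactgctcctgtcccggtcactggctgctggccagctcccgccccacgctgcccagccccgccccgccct
Bhmt: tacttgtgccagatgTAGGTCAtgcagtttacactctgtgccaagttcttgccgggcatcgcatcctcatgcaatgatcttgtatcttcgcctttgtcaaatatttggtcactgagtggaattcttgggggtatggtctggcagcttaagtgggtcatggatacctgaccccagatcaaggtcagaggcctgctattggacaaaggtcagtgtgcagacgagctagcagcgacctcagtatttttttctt
Cbs: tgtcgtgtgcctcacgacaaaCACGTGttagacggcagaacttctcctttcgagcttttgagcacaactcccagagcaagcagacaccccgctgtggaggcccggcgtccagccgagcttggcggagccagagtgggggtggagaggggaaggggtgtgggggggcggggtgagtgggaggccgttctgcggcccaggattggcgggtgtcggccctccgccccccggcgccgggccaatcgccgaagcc
Tdo2: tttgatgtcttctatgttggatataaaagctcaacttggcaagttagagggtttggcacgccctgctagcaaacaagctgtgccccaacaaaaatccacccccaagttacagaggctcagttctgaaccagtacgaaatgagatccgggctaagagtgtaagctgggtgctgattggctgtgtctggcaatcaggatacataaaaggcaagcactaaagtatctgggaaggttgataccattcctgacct
Ddo: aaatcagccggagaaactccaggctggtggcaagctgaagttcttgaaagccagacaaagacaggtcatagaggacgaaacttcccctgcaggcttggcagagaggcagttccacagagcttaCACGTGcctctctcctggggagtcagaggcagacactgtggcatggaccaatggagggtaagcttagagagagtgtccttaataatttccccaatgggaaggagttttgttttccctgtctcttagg
The E-box of Cbs lies 229 to 224 bases before the start and that of Ddo 127 to 122 bases before it, and the ROR core of Bhmt lies 235 to 229 bases before its start. The windows of Agxt, Amdhd1 and Tdo2 hold none of the 4 motifs in these letters. Of the 3 members with an E-box in this window, Cbs was higher in HepKO, Ddo was lower and Ass1 was not called. Any link between the motif and these levels was not tested. A match is a description of the sequence and not evidence of binding.

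Other enzymes of amino acid breakdown outside the 37, a list of 56 of which 54 were tested, were called higher in HepKO in 22 cases and lower in 13, where 13.2% of all tested genes were higher and 13.3% lower. Their summed level was 14640 to 16540 CPM in HepKO libraries and 11750 to 13850 CPM in HepWT libraries. Without Oat these ranges overlapped, at 12750 to 14310 CPM in HepKO and 11280 to 12930 CPM in HepWT. The largest differences were those of Oat, the ornithine aminotransferase (1997 ± 218 CPM in HepKO and 695 ± 215 CPM in HepWT, log2 1.55 ± 0.12, adjusted p = 3.34e-08), Aadat, an aminotransferase of kynurenine and aminoadipate (207 ± 35.01 CPM in HepKO and 100.8 ± 14.4 CPM in HepWT, log2 1.04 ± 0.10, adjusted p = 5.93e-07) and Csad, of taurine synthesis (402 ± 92.7 CPM in HepKO and 196 ± 105 CPM in HepWT, log2 1.03 ± 0.26, adjusted p = 0.00636; SD, n = 12 each). Against the same background, 3 of 15 transporters were higher and 2 lower, among them Slc38a3, which carries glutamine (log2 -0.51, adjusted p = 3.15e-06), Slc25a15, the mitochondrial ornithine carrier (log2 0.47, adjusted p = 5.71e-06), and Slc16a10, which carries aromatic amino acids (log2 0.45, adjusted p = 6.61e-05). Of 12 regulators, again against 13.2% and 13.3% of all genes, 1 was higher, the deacylase Sirt5 (log2 0.20, adjusted p = 0.00417), and 3 were lower, among them the transcription factors Cebpa (log2 -0.55, adjusted p = 4.93e-08) and Creb3l3 (log2 -0.39, adjusted p = 2.29e-06).

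Since the urea cycle belongs to periportal hepatocytes, zonation genes were counted too. Of all tested genes, 13.2% were called higher and 13.3% lower. Of 7 periportal genes, of which Gls2, Sds, Hal and Ass1 are also members, 0 were higher and 2 were lower, Hsd17b13 (log2 -0.62, adjusted p = 1.17e-06) and Hal. At an unadjusted p below 0.05 in edgeR the numbers were also 0 and 2 (17.6% and 18.8% of all genes). Of 9 pericentral genes, 3 were higher, Oat, Lgr5 (log2 0.75, adjusted p = 0.00801) and Lect2 (log2 0.64, adjusted p = 1.82e-05), and 1 was lower, Rhbg (log2 -0.55, adjusted p = 0.00199). Glul, Cyp2e1, Cyp1a2, Slc1a2 and Axin2 were not called. Hepatocyte markers were high in all libraries, but the largest of them differed: Alb stood at 25010 ± 4309 CPM in HepKO and 63920 ± 7972 CPM in HepWT (SD, n = 12 each; log2 -1.36 ± 0.09, adjusted p = 4.31e-09), and of the other 6 tested, 1 was called. Markers of other liver cells moved with genotype as well. All 8 Kupffer cell markers were lower in HepKO (summed level 214 to 449 CPM in HepKO, 274 to 499.7 CPM in HepWT), 5 of 6 endothelial markers were lower (284 to 345 CPM in HepKO, 331 to 382 CPM in HepWT), and 2 of 5 tested cholangiocyte markers were higher (46.9 to 159 CPM in HepKO, 26.0 to 58.2 CPM in HepWT). The cholangiocyte sum was mostly Spp1 (63.3 CPM in HepKO, 29.1 CPM in HepWT), Sox9 was the other one called, and Krt19, Krt7 and Epcam were not called. Of 6 stellate cell and fibroblast markers, 1 was higher, Reln, and 2 were lower, Col1a1 (log2 -1.18) and Col3a1 (log2 -1.14), with summed levels of 359 to 467 CPM in HepKO and 362 to 531 CPM in HepWT. The part of these markers in the results on the 37 genes was not tested.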

How the data were processed

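The deposited table holds raw counts of 24 mouse liver samples, whole numbers for each gene and library with no normalization. Per the labels' protocols, a stranded kit was used on 250 ng of ribosome-depleted total RNA. STAR 2.4.0i and the mm10 build are named in the submitters' processing notes. The counting tool, annotation, strand setting and filters were not given in the sources used here. Values are therefore uncertain for genes that overlap or share sequence with others. No molecular identifiers are named, so PCR copies may be counted more than once. Between the 2 libraries of a group, chi-square per degree of freedom was 8.42 to 57.7, so no pair was a single library deposited again. In the table's header, 5 columns of HepKO replicate 2 bear an unexplained suffix; all columns were used.

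The main test was the quasi-likelihood F test of edgeR 4.0.16 (limma 3.58.1, R 4.3.3), two-sided, after TMM scaling. Genes were kept by filterByExpr with the groups given, at its defaults of 10 for the minimum count and 15 for the minimum total. The Benjamini-Hochberg adjustment ran over all 17275 genes tested, with a threshold of 0.05. Differences between genotypes, on average and by time, and their interaction came from a fit with a level for every group. Rhythms, amplitudes, peak times and the difference of rhythms came from a fit of 24 h cosine and sine terms in each genotype. CPM are scaled by TMM, and SDs over 12 libraries include the change over the day. The fits were tested on simulated data. Alternatives were limma-voom, DESeq2 1.42.0, DESeq2 size factors in the edgeR fit, other filters, a threshold of 0.01, a replicate block, a 12 h term, and fits without chosen libraries, which kept the gene set of the whole fit.

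All 37 genes are named. Given in full are the 6 urea cycle genes, the 10 called genes with the largest averaged difference, the 6 with the smallest p for a called rhythm difference, and the 4 largest called differences at a time; from each related list, up to 3 called genes are named. The members, lists and rules were chosen with earlier results of these data known. Same-numbered HepKO and HepWT libraries of a time did not deviate together (correlations -0.089 to 0.053, n = 6), so the numbers were not taken to pair them. Same-numbered HepWT libraries of different times did deviate together (median correlation 0.169, highest 0.299, n = 15 pairs of times), and those of HepKO did not (median -0.016). Positions and shared sequence were taken from GENCODE M21 (GRCm38), promoters from RefSeq.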

Additional observations from a re-analysis of the deposited data

Results flagged for a closer look

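The genotype difference varied with zeitgeber time for 4 of the 37 genes by the interaction test in edgeR (1.12% of all tested genes did). The adjusted p was 0.00636 for Agxt, 0.00973 for Amdhd1, 0.022 for Cbs and 0.0239 for Ddo. For Agxt, HepKO minus HepWT was -0.03 on the log2 scale at ZT6 and 1.36 at ZT14, for Amdhd1 -0.31 and 0.84, and for Cbs 0.06 and 1.59. For Ddo it was -0.12 at ZT6 and -0.91 at ZT14. Without HepWT ZT6 replicate 1 the ZT6 differences were 0.31 for Agxt, -0.04 for Amdhd1, 0.44 for Cbs and -0.15 for Ddo, and without HepWT ZT6 replicate 2 they were -0.30, -0.54, -0.24 and -0.09 in the same order of genes.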

How the results depend on the processing

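Of the averaged differences of the 37 genes under 35 alternatives, 1208 kept direction and call, 45 lost the call, 18 gained it and 24 changed sign, the last only in genes that were never called; the cause was not tested. Counts of members are given as higher and lower in HepKO. Without the filter on low counts they were 4 and 3 at ZT2, 9 lower and 3 higher at ZT6, 8 and 8 at ZT10, 12 higher at ZT14, 8 higher at ZT18, and 8 and 2 at ZT22, with 18 interactions and 15 rhythm differences (1367 in all genes). DESeq2 gave 1 higher at ZT2, 2 and 5 at ZT6, 4 and 1 at ZT22, 7 interactions and 574 rhythm differences in all genes. At an adjusted p of 0.01 there were 5 lower on average, 0 and 0 at ZT6, 2 lower at ZT14, 0 lower at ZT18, 1 higher at ZT22, 2 interactions, 4 HepKO rhythms and 3 rhythm differences, and 2928 averaged calls and 116 rhythm differences in all genes. Without the 5 shallow HepKO libraries there were 5 lower on average, 0 and 0 at ZT6, 1 higher at ZT10, 1 lower at ZT14, 2 and 0 at ZT18, 1 higher at ZT22, 0 interactions, 1 HepKO rhythm and 3 rhythm differences, and 2900 and 70 in all genes; fewer samples entered that fit. With the HepWT replicate 1 libraries alone there were 1 higher at ZT2, 0 and 12 at ZT6, 5 lower at ZT10, 1 lower at ZT22, and 163 rhythm differences in all genes. With HepWT replicate 2 alone there were 5 lower on average, 3 higher at ZT2, 4 and 0 at ZT6, 7 higher at ZT10, 1 lower at ZT18, 6 higher at ZT22, 4 rhythm differences and 150 in all genes. Lower at ZT6 was 0 by limma-voom, 4 with genes kept from a mean log2 CPM of 1 upward, and 0 with the replicate block. The replicate block also ended the rhythm difference of Kynu (adjusted p = 0.0531), the HepKO rhythm of Gpt2 (adjusted p = 0.0503) and the HepWT rhythm of Otc (adjusted p = 0.0503). Leaving out each library in turn gave 6 to 9 lower on average, 0 to 1 higher at ZT2, 0 to 3 higher and 0 to 10 lower at ZT6, 3 to 7 higher and 1 to 5 lower at ZT10, 5 to 10 higher and 2 to 4 lower at ZT14, 4 to 7 higher and 0 to 3 lower at ZT18, 1 to 3 higher at ZT22, 2 to 9 interactions, and 172 to 309 rhythm differences in all genes; in such a fit the lone library is assumed to vary like the other groups. Signs changed for Tat with limma-voom (0.006), the replicate block (0.001), without the shallow libraries (0.024) and against HepWT replicate 2 alone (0.247). Against HepWT replicate 2 alone they also changed for Cps1 (-0.011), Ivd (0.02), Sds (0.03), Sdsl (0.099) and Uroc1 (0.0), without the shallow libraries for Ivd (0.013), and against HepWT replicate 1 alone for Nags (-0.004) and Otc (-0.027). With each library left out, the log2 difference ran from -0.078 to 0.067 for Tat, -0.013 to 0.072 for Cps1, -0.198 to 0.058 for Sds and -0.184 to 0.09 for Sdsl. Another scaling moved the median of all genes by less than 0.1.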
